A study of Rattus norvegicus with 30 samples.

Results

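The 7 acyl-CoA thioesterase genes Acot1, Acot2, Acot3, Acot4, Acot7, Acot8 and Acot12 were described in primary rat hepatocytes exposed to diisononyl phthalate (DINP), a plasticiser. They were found as every probe set that the array's annotation gave to 1 of these genes alone, by current or older symbol. This returned 10 of the 31099 probe sets and 7 of the 14217 genes named on the array. Acot2 had 3 probe sets, called Acot2 A, B and C here, Acot7 had 2 (Acot7 A and B), and the other 5 genes had 1 each. One more probe set was annotated to both Acot1 and Acot2, so it was left out of every count and its values are given beside those genes.

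Cells of male Sprague Dawley rats, frozen by a commercial supplier, were kept on collagen beneath Matrigel and dosed on day 3, per the labels' protocols. There were 6 groups of 5 wells: 1% DMSO alone (the vehicle), 25 mM DINP and 100 mM DINP, each for 24 h and for 48 h. All groups received DMSO, and the unit mM is written as the labels give it, since it could not be checked. Wells were separate cultures by the labels, which do not tie them to donor animals, and p-values therefore reflect differences among wells.

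Acyl-CoA thioesterases split an acyl-CoA into a free fatty acid and coenzyme A, and so oppose the acyl-CoA synthetases. The type I enzymes sit in different compartments: Acot1 in the cytosol, Acot2 in the mitochondrial matrix, and Acot3 and Acot4 in peroxisomes. Acot7, Acot8 and Acot12 belong to the unrelated type II family. Several of these genes are known targets, in rodent liver, of PPAR alpha, a nuclear receptor for fatty acids that binds DNA with RXR at direct repeats of AGGTCA, and metabolites of phthalates are known to activate it.

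RefSeq promoter windows (build GRCr8, 250 bases before to 50 after each start) were available for all 7 genes, as 8 windows because Acot7 has 2. They were searched on both strands for the repeat AGGTCANAGGTCA. None of the 8 held it exactly, against 0.0538% of all 33469 windows. With at most 1 letter changed, the windows of Acot4, Acot8 and Acot12 held it, against 0.439% of all windows. Its repeated unit, AGGTCA, which overlaps the repeat, was in the same 3 windows and in 16.2% of all. The 3 matches are shown because they are the only ones among the 8 windows, with the repeat in capitals and 8 flanking bases on each side. A match is a description of letters, not of a bound site.
Acot4, chr6:109399841-109399853, opposite strand to the gene: gcacagagAGGTCAGAGGTCTggcttctg
Acot8, chr3:173962198-173962210, minus strand, which is the gene's own: cacgccagGGGTCAGAGGTCActgggtaa
Acot12, chr2:24721854-24721866, opposite strand to the gene: tgcttaggAGGTGAGAGGTCAgggtccta

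The Acot4 match ended at the last base before the start site, and the matches of Acot8 and Acot12 began 22 and 105 bases before it when counted along the gene. The 250 bases before the start of Acot1 (chr6:109367024-109367273, plus strand, GRCr8) are shown because Acot1 had the largest difference of all tested probe sets and its window held no match, which says only that these letters are not there.
Acot1: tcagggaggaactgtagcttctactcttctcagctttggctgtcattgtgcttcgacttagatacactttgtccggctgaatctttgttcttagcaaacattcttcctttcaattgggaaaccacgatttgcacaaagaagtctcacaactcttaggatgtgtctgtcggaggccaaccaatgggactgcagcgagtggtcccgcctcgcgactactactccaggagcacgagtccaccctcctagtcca

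Several facts of the whole array set touch the results. Array 1 of the vehicle group at 48 h stood apart. It was outlying within its group in 489 probe sets, against 160 to 339 on each of the other 29 arrays, so results that rest on it are given with and without it. The 24 control probe sets of the poly-A spikes were 0.41 (log2) higher in the vehicle arrays at 48 h than at 24 h. With DINP they were 0.03 (25 mM) and 0.16 (100 mM) higher than the vehicle at 24 h, and 0.31 and 0.25 higher at 48 h. Setting each array on these spikes moved the median difference of all tested probe sets to -0.07, -0.22, -0.34 and -0.32 in the 4 comparisons with the vehicle (25 and 100 mM at 24 h, then at 48 h) and to -0.41 between the vehicle groups. The share of all calls that were higher went from 43.9% to 43.3%, from 45.1% to 13.6%, from 41.4% to 4.01% and from 44.6% to 5.16%, and from 46.5% to 0.663% between the vehicle groups. Centring each array on its median gave 65.2%, 70.8%, 40.6% and 75.1% for the 4 comparisons with the vehicle, so directions below are relative to the other probe sets of an array. The control probe set median for 5S ribosomal RNA was 880 to 1324 in vehicle arrays at 24 h and 1582 to 3083 (25 mM) and 1836 to 2954 (100 mM) with DINP, and at 48 h 736 to 992 against 1533 to 2049 and 1056 to 1929. Its part in the results was not tested.

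All 9 thioesterase probe sets that passed the filter on dim signals rose with DINP at both concentrations and both times. The largest differences were those of Acot1, the cytosolic enzyme, followed by Acot4, a peroxisomal one. The smallest were those of Acot12, Acot8 and Acot7 A at 24 h, and of Acot3, Acot12, Acot7 A and Acot2 C at 48 h. The median of the 9 differences was 1.36 (25 mM, 24 h), 1.24 (100 mM, 24 h), 1.30 (25 mM, 48 h) and 1.19 (100 mM, 48 h), in log2 units. Over all 18625 tested probe sets it was -0.05, -0.05, -0.03 and -0.07.

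Values were compared as log2(signal + 16), which understates the change of dim genes. A probe set was called where limma's adjusted p (Benjamini-Hochberg over all 18625) was under 0.05. By that rule 9 of 9 were higher in each comparison with the vehicle, while 5.85%, 5.55%, 7.41% and 6.49% of all tested probe sets were called higher. For these 9 probe sets no treated array was as low as any vehicle array of the same time. Being called higher with no such overlap held for 4.16%, 4.2%, 4.37% and 4.42% of the tested probe sets. Acot1 passed the filter only through its treated groups, so the count free of that choice is 8 of 8. Of these 8, Acot2 A, B and C belong to the same gene, so the count is of probe sets and not of separate genes. The 4 comparisons share vehicle arrays in pairs, and they are not independent of one another.

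**Figure D1:**
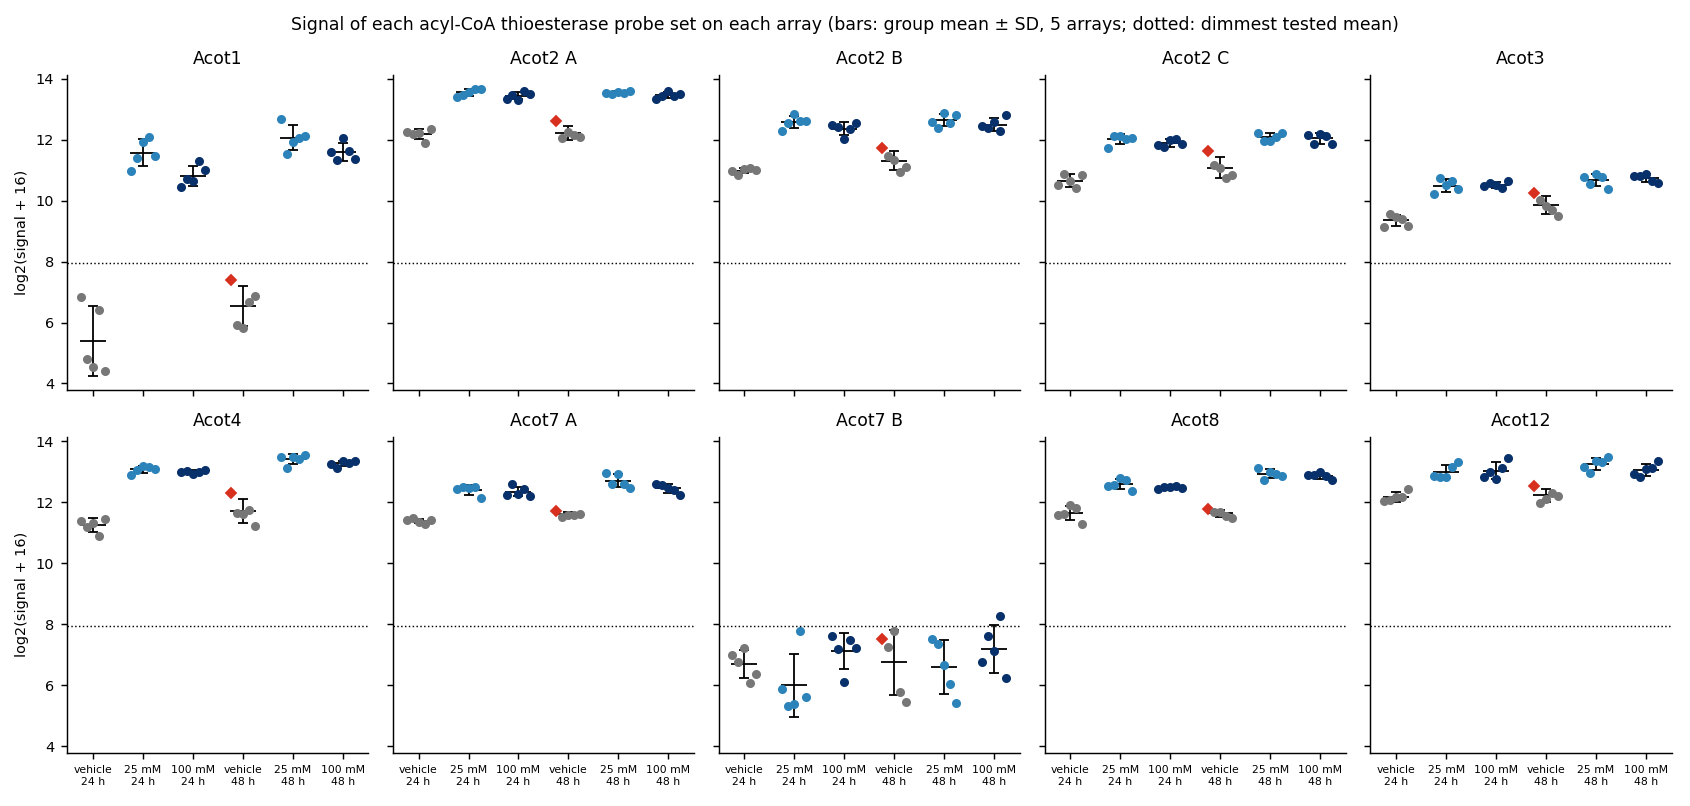
Signal of each of the 10 thioesterase probe sets on every array, as log2(signal + 16), by group, with bars for the group mean and SD (5 arrays each). The dotted line is the dimmest mean that was tested, and the red diamond is replicate 1 of the vehicle group at 48 h. In every panel but that of Acot7 B the DINP arrays of a time lie above the vehicle arrays of that time.

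Acot1 was close to the bottom of the scale without DINP. At 24 h its signal was 99.6, 11.8, 7.16, 68.3 and 5.18 in the 5 vehicle wells. It was 1992, 2686, 3875, 4380.1 and 2817 with 25 mM DINP, and 1397, 1649, 1584, 2489 and 2059 with 100 mM. The lowest treated well was thus far above the highest vehicle well, and the wells given 25 mM tended to be brighter than those given 100 mM, although the ranges overlapped. After 48 h it read 153, 44.7, 41.1, 85.5 and 100.1 with the vehicle, 6531, 2937, 3914, 4273 and 4484 with 25 mM, and 3054, 2556, 4263, 3172 and 2639 with 100 mM. Replicate 1 was the highest well of both the vehicle and the 25 mM group at that time.

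The fitted Acot1 differences were 6.18 and 5.43 at 24 h (25 and 100 mM) and 5.53 and 5.06 at 48 h, each ± 0.35 (SE), with adjusted p-values of 3.41e-15, 1.20e-13, 6.12e-14 and 6.28e-13 by limma. In each comparison it ranked 1 of the 18625 tested probe sets. Acot1 passed the filter only through its DINP groups, so its rank and p-values are given as a description. The SE uses 1 spread shared by all 6 groups, whose own SDs ran from 0.29 (100 mM, 48 h) to 1.14 (vehicle, 24 h). Both vehicle means, 5.40 ± 1.14 and 6.54 ± 0.66 (log2, SD, n = 5), lay below the dimmest tested mean of 7.956, and the file holds no detection calls. These differences therefore depend on the constant added before the logarithm. Adding 64 in its place gave 5.01, 4.28, 4.92 and 4.46. With the vehicle set to the dimmest tested mean, Acot1 was at least 12.3-fold (25 mM) and 7.30-fold (100 mM) higher at 24 h, and at least 17.3-fold and 12.5-fold higher at 48 h.

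Acot2, the mitochondrial enzyme, was well above the filter in every group and its 3 probe sets gave similar answers. Acot2 A read 4864, 4701, 4729, 3815 and 5212 in vehicle wells at 24 h, against 10727, 11441, 12111, 13000.5 and 12935 with 25 mM and 10334, 11416, 10155, 12417 and 11520.0 with 100 mM. Its vehicle wells at 48 h read 6254, 4239, 4822, 4536 and 4338, and the treated wells lay between 11561 and 12433 (25 mM) and between 10401 and 12481 (100 mM). Replicate 1 was the brightest vehicle well at 48 h, and it was still below every treated well. The differences were 1.37, 1.26, 1.32 and 1.24 (each ± 0.08, SE), or 2.58-, 2.40-, 2.50- and 2.36-fold, and the largest of the 4 adjusted p-values was 4.80e-13 (limma).

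Acot2 B ranged from 1824 to 2160.3 with the vehicle at 24 h, and rose by 1.59 and 1.37 (± 0.12) to ranges of 5006 to 7408 and 4118 to 5922. By 48 h its vehicle wells spread from 1947 to 3351, and the differences were 1.34 and 1.19. Acot2 C ranged from 1339 to 1871 with the vehicle at 24 h and from 1692 to 3135 at 48 h. Its differences were 1.36 and 1.24 at 24 h and 1.00 and 0.96 at 48 h (± 0.12). For both probe sets the highest vehicle well at 48 h was replicate 1, and without it the 48 h differences were 1.44 and 1.29 for Acot2 B and 1.14 and 1.09 for Acot2 C. The probe set annotated to both Acot1 and Acot2 was 1.86 and 1.54 higher at 24 h and 1.95 and 1.74 higher at 48 h (± 0.13), between the values of the 2 genes. Its vehicle wells at 24 h read 483 to 791 and its treated wells 1477 to 2518. How far the other Acot1 and Acot2 probe sets also pick up the related transcript was not tested.

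Acot4, a peroxisomal enzyme known in mouse for splitting succinyl-CoA, had the largest differences after Acot1. It read 2677, 2344, 2571, 1867 and 2808 in the vehicle wells at 24 h, 7638, 8579, 9254, 9175 and 8713 with 25 mM, and 8086, 8314, 7754, 8186 and 8574 with 100 mM. The 48 h values were 5055, 3173, 3112, 3445 and 2375 with the vehicle, 11576, 8886, 11529, 10991 and 12038 with 25 mM, and 9855, 8982, 10422, 9906 and 10399.5 with 100 mM. Replicate 1 stood highest of the vehicle wells at 48 h, and no groups overlapped between DINP and vehicle at either time. The differences were 1.83 (3.54-fold) and 1.74 (3.35-fold) at 24 h and 1.71 (3.28-fold) and 1.57 (2.96-fold) at 48 h, each ± 0.12, with the largest adjusted p at 8.72e-12 (limma). They ranked 17, 13, 22 and 21 of 18625, and without replicate 1 those at 48 h were 1.86 and 1.72.

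Acot3, which splits long-chain acyl-CoA in peroxisomes, moved less. Its signal with the vehicle was 554, 746, 687, 664 and 559 at 24 h and 1210.0, 1019, 889, 813 and 709.5 at 48 h. With 25 mM it was 1170.1, 1704, 1439.7, 1576 and 1326 at 24 h and 1744, 1489.9, 1877, 1743 and 1333 at 48 h, and with 100 mM 1409.5, 1502, 1439, 1342 and 1604, and then 1763, 1789.6, 1861, 1575 and 1505. The highest vehicle well at 48 h, again replicate 1, came near the lowest treated well, 1333, without reaching it. Acot3 rose by 1.15 and 1.17 at 24 h and by 0.82 and 0.88 at 48 h (± 0.12), with the largest adjusted p at 5.76e-06 (limma). Without replicate 1 the 48 h values were 0.92 and 0.98.

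Acot7 A, for the cytosolic enzyme best known from brain, was 2.02-fold and 1.95-fold higher at 24 h. The vehicle wells read 2753, 2823, 2574, 2472 and 2735, those with 25 mM 5482, 5747, 5611, 5839.8 and 4474, and those with 100 mM 4830.3, 6154, 4933, 5541 and 4768. At 48 h the vehicle wells were 3378, 2924, 3065, 3025 and 3122, against 7974, 6163, 7731, 6229 and 5663 with 25 mM and 6175, 6107, 5646, 5429 and 4794 with 100 mM. The vehicle wells of each time were tightly grouped and the treated wells spread more widely above them. The differences were 1.01, 0.96, 1.11 and 0.85 (± 0.09), with the largest adjusted p at 1.10e-08 (limma). Acot7 B had a mean of 6.72 (log2), below the filter, and read between 23.7 and 294 with overlapping groups at each time. It was not tested, and signal above background is not shown for it.

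Acot8, a peroxisomal enzyme that acts on many acyl-CoAs including bile acid CoA esters, rose at both times, with larger point estimates at 48 h that were not called different from those at 24 h. It read 3078, 3137, 3858, 3594 and 2502 with the vehicle at 24 h, 5932, 6039, 7036, 6853 and 5252 with 25 mM, and 5529, 5802, 5831, 5901 and 5605 with 100 mM. After 48 h the values were 3484, 3308, 3243, 2957 and 2869.8 with the vehicle, 9012, 6838, 8108, 7813 and 7468 with 25 mM, and 7619, 7610.5, 8121, 7457 and 6769.8 with 100 mM. The 2 vehicle groups covered much the same range. Treated wells of the 2 times were not tested against each other. The differences were 0.95 and 0.84 at 24 h and 1.30 and 1.24 at 48 h (± 0.09), with the largest adjusted p at 1.79e-08 (limma).

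Acot12, a cytosolic enzyme that splits acetyl-CoA, had the smallest difference of the 9 at 25 mM and 24 h. Its vehicle wells read 4218, 4272, 4601, 4611 and 5501 at 24 h, those with 25 mM 7485, 7247, 7332, 9209 and 10151, and those with 100 mM 7275, 8096, 7003, 8898 and 11306. In the 48 h groups the readings were 5906, 4056, 4377, 5062 and 4727 with the vehicle, 9109, 8042, 10391, 10224 and 11549 with 25 mM, and 7709, 7336, 8686, 8851 and 10376 with 100 mM. Replicate 5 was the highest well in every group but the vehicle at 48 h. Wells with the same replicate number form 1 round of consecutive array numbers, and the part of the round in this order was not tested. Acot12 rose by 0.83, 0.86, 1.03 and 0.83 (± 0.12), which is 1.77-, 1.81-, 2.04- and 1.78-fold, with the largest adjusted p at 6.27e-06 (limma).

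**Figure D2:**
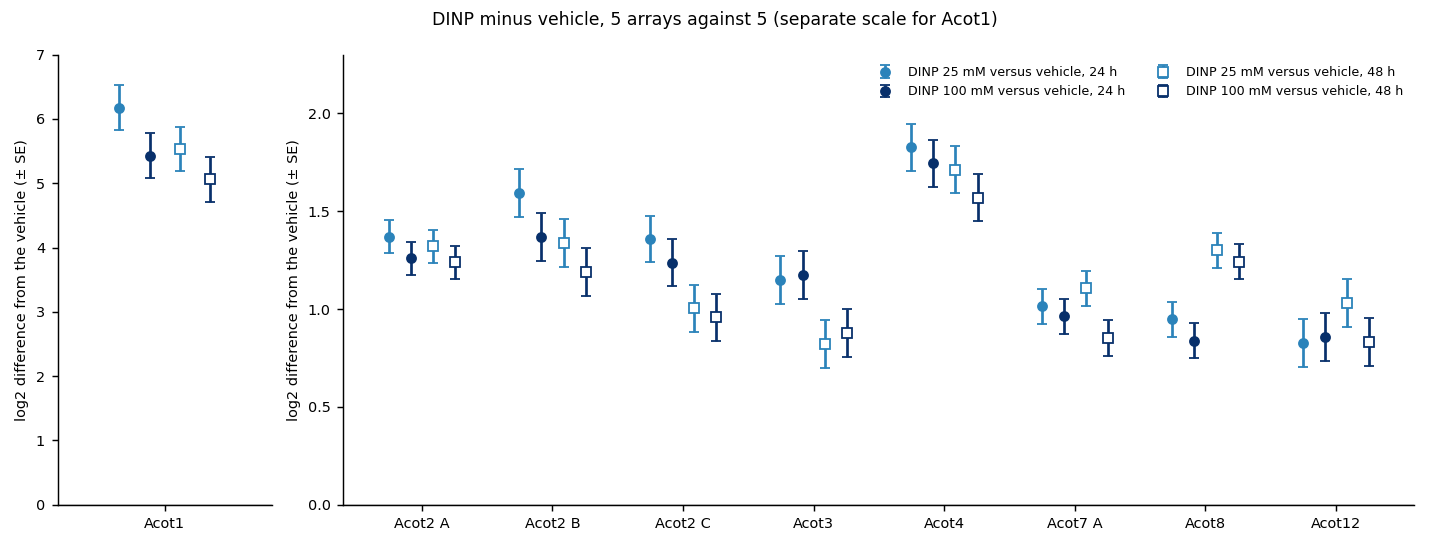
Difference from the vehicle of the same time for each tested thioesterase probe set, in log2 units with its SE, at 25 and 100 mM and at 24 and 48 h. Acot1 is drawn on a scale of its own because its differences, 5.06 to 6.18, exceed the 0.82 to 1.83 of the other 8 probe sets.

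By group mean, the highest group was 25 mM at 48 h for 7 of the 9 tested probe sets. The exceptions were Acot2 A, highest with 25 mM at 24 h, and Acot3, highest with 100 mM at 48 h. The vehicle at 24 h was lowest for 8 of 9, and for Acot8 the 2 vehicle groups differed by only -0.02 ± 0.09 (48 h against 24 h).

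No further rise was detectable from 25 to 100 mM. None of the 9 probe sets differed between 100 and 25 mM at either time by limma's adjusted p, and at an unadjusted p under 0.05 there was 1 at each time. Over all tested probe sets 0.0107% were called at 24 h and 0.00537% at 48 h by the adjusted p, and 4.1% and 7.53% by the unadjusted p, so these counts are near the background. The point estimates were lower with 100 mM for 7 of 9 probe sets at 24 h and 8 of 9 at 48 h, from -0.75 to 0.06. Acot1 was the probe set under an unadjusted p of 0.05 at 24 h, at -0.75 with a 95% interval of -1.46 to -0.04 (adjusted p = 1.00, limma). That interval uses the spread shared by all groups, including the dim vehicle group at 24 h (SD 1.14). The SDs with 25 and 100 mM at 24 h were 0.45 and 0.33. The intervals of the other probe sets included 0, among them -0.33 to 0.16 for Acot4, -0.28 to 0.06 for Acot2 A, and -0.22 to 0.28 for Acot12. At 48 h the intervals were -1.18 to 0.24 for Acot1, -0.39 to 0.10 for Acot4, -0.25 to 0.09 for Acot2 A, and -0.45 to 0.05 for Acot12. Acot7 A at 48 h, at -0.25 ± 0.09, had the smallest unadjusted p, 0.00816, and an adjusted p of 0.535 (limma).

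The response to DINP did not differ detectably between 24 and 48 h for any thioesterase probe set. The difference between the 2 effects was called for 0 of 9 at 25 mM and 0 of 9 at 100 mM, against 0.242% and 0.0644% of all tested probe sets. At an unadjusted p under 0.05 there were 2 (25 mM) and 1 (100 mM), against 8.2% and 6.26% of all. Acot8 had the largest rise in effect, by 0.35 ± 0.13 at 25 mM (95% interval 0.09 to 0.61, adjusted p = 0.399) and by 0.40 ± 0.13 at 100 mM (0.14 to 0.66, adjusted p = 0.419), by limma. Acot2 C, at -0.35 ± 0.17 (adjusted p = 0.594), was the other at 25 mM. The remaining probe sets ranged from -0.64 to 0.20 at 25 mM and from -0.36 to -0.02 at 100 mM.

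Without DINP, probe sets of the type I genes Acot3 and Acot4, and 1 of the 3 of Acot2, were brighter at 48 h than at 24 h. Between the vehicle groups 3 of the 8 probe sets other than Acot1 were called higher and none lower, and 4 of 9 with Acot1, against 6.67% of all tested probe sets called higher and 14.4% called in either direction. Acot3 rose by 0.51 ± 0.12 (adjusted p = 0.00424), Acot4 by 0.45 ± 0.12 (adjusted p = 0.00922) and Acot2 C by 0.43 ± 0.12 (adjusted p = 0.0124), all by limma. The fitted value for Acot1 was 1.14 ± 0.35 (adjusted p = 0.0241, limma). Acot1 passed the filter only through its DINP groups and both its vehicle means lie below the dimmest tested mean, so its difference is between levels not shown to be above background and supports no change. The other Acot2 probe sets were not called, at 0.32 ± 0.12 (Acot2 B, adjusted p = 0.0795) and 0.05 ± 0.08 (Acot2 A, adjusted p = 0.801). The type II genes gave 0.21 ± 0.09 (Acot7 A, adjusted p = 0.113), -0.02 ± 0.09 (Acot8) and 0.05 ± 0.12 (Acot12). Of the 9, Acot7 A alone had no overlap between the vehicle wells of the 2 times. None was both called higher and free of overlap, against 3.95% of all tested probe sets.

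These 4 calls rested in part on array 1 of the vehicle at 48 h and on how arrays were scaled. Without that array 2 of the 4 remained, Acot3 at 0.41 and Acot4 at 0.30, while Acot1 (0.92, adjusted p = 0.0967) and Acot2 C (0.30, adjusted p = 0.0676) did not pass (limma). With arrays set on the poly-A spikes, none of the 4 was called, at 0.73 (Acot1), 0.02 (Acot2 C), 0.10 (Acot3) and 0.04 (Acot4). On that scale the median of all tested probe sets was -0.41, and Acot2 A (-0.37, adjusted p = 0.0305) and Acot8 (-0.43, adjusted p = 0.00453) were called lower.

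**Figure D3:**
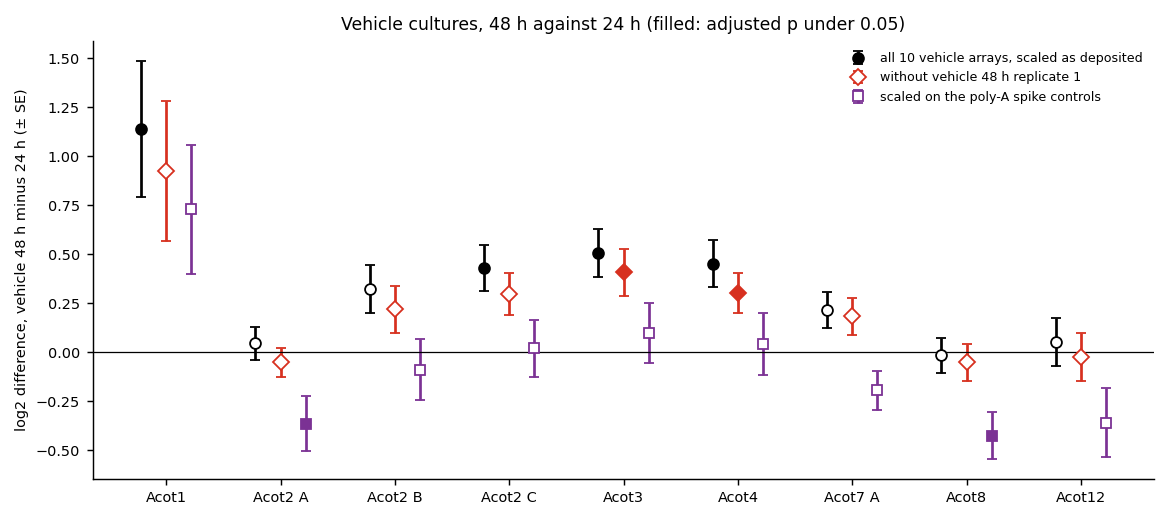
Difference between the vehicle groups, 48 h minus 24 h, in log2 units for the 9 tested probe sets, from all arrays, without array 1 of the vehicle at 48 h, and with arrays set on the poly-A spikes. Filled symbols have an adjusted p under 0.05: 4, 2 and 2 probe sets.

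The type I genes lie together on chromosome 6, in the order Acot2, Acot1, Rpl23al8, Acot4, Acot3, Acot5 and Acot6 in the GRCr8 gene table, of which the 4 thioesterases described here had probe sets. The 8 genes on each side of the cluster were looked at after the files had been seen. Of these 16, 12 were tested. With DINP 2 (25 mM, 24 h), 2 (100 mM, 24 h), 2 (25 mM, 48 h) and 3 (100 mM, 48 h) were called higher, and 1, 0, 1 and 1 lower. Of all tested probe sets 5.85%, 5.55%, 7.41% and 6.49% were called higher, and 1395, 1255, 1953 and 1503 of the 18625 were called lower. The neighbours' largest difference was 0.49, below the smallest of the cluster's own, 0.82. Ptgr2, a prostaglandin reductase, was higher in all 4 comparisons (0.39, 0.33, 0.30 and 0.38), and so was Entpd5, a nucleoside diphosphatase (0.46, 0.34, 0.49 and 0.49). Heatr4, the next but one gene before Acot2, was 0.25, 0.16, 0.36 and 0.44 higher and was called only with 100 mM at 48 h (limma).

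**Figure D4:**
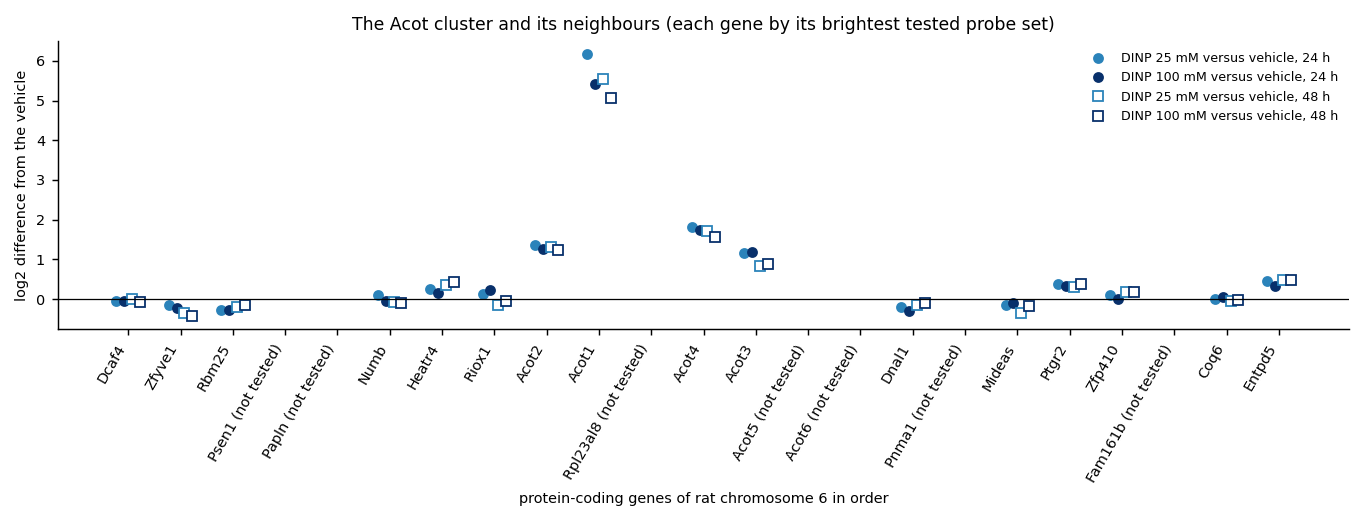
Difference from the vehicle in log2 units for the genes around the Acot cluster of chromosome 6, in gene order, for the brightest tested probe set of each gene. Acot1 to Acot4 lie at 0.82 or more in all 4 comparisons, and the 12 tested neighbours lie between -0.43 and 0.49.

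The list of other thioesterases and CoA hydrolases held 19 genes, of which 9 were tested: 4, 5, 4 and 3 were called higher (25 and 100 mM at 24 h, then at 48 h), and 0, 0, 1 and 0 lower, with medians of 0.23, 0.29, 0.23 and 0.17. The share called higher among all tested probe sets was 5.85%, 5.55%, 7.41% and 6.49%, and 1395, 1255, 1953 and 1503 of the 18625 were called lower. Nudt7, a peroxisomal CoA diphosphatase, rose by 1.07 ± 0.06 with 25 mM at 24 h, and was 1.00, 0.99 and 0.95 higher in the other comparisons. The rises with 25 mM at 24 h were smaller for Hibch, a mitochondrial hydrolase of valine breakdown, at 0.45 ± 0.09, and for Them4, a mitochondrial thioesterase, at 0.42 ± 0.08. The thioesterase Acot13 was called higher in all 4 comparisons, at 0.23, 0.29, 0.23 and 0.33, and Acot9, a mitochondrial one, was called lower only with 25 mM at 48 h (-0.27). These 2 were named after their values were seen. Acot5, Acot6, Acot10 and Acot11 were not analysed here.

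Of 17 tested acyl-CoA synthetases and acyl-CoA binding proteins, 6, 10, 8 and 9 were called higher with DINP and 3, 3, 2 and 2 lower. Beside this list and the beta-oxidation list below, 5.85%, 5.55%, 7.41% and 6.49% of all tested probe sets were called higher. Called lower were 1395, 1255, 1953 and 1503 of the 18625. The synthetase called lower was Acsl4, which prefers arachidonic acid, in all 4 comparisons (-0.53, -0.50, -0.57 and -0.57). The others called lower were the binding proteins Acbd3, in all 4, and Acbd5, at 24 h. These 3 were named after their values were seen. Acsl1, which makes long-chain acyl-CoA, rose by 2.10 ± 0.09 with 25 mM at 24 h, Acsm3, a medium-chain synthetase, by 0.77 ± 0.16, and Slc27a2, a very-long-chain synthetase and transporter, by 0.59 ± 0.05. Enzymes and carriers of peroxisomal and mitochondrial beta-oxidation, which use the same substrates, were higher for 19, 19, 18 and 19 of 21 tested, and lower for 0, 1, 0 and 0. Their medians were 0.92, 0.83, 0.89 and 0.87. Ehhadh, the peroxisomal bifunctional enzyme, rose by 3.05 ± 0.10 with 25 mM at 24 h, Ech1, a dienoyl-CoA isomerase, by 1.57 ± 0.07, and Crat, carnitine acetyltransferase, by 1.57 ± 0.15.

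Transcription regulators of fatty acid genes moved in both directions: 2, 2, 3 and 2 of 14 tested were called higher and 3, 2, 2 and 2 lower. Over all tested probe sets 13.3%, 12.3%, 17.9% and 14.6% were called in either direction. Creb3l3, a liver transcription factor, rose by 1.28 ± 0.07 with 25 mM at 24 h, and Rxrg, a partner of the PPARs, by 1.04 ± 0.10, while Lpin1, a phosphatidate phosphatase and coactivator, fell by 0.92 on the log2 scale. Ppara itself was on the array below the filter and was not tested. All of these lists were drawn up with earlier results of these arrays known.

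Over the 30 arrays, the genes whose log2 signal was most like that of each member were found among 10603 other genes, by Pearson's r, as a description, since all points share the same 6 groups. Acot1 was most like Aig1 (0.980), Ehhadh (0.976) and Cyp4a1 (0.972). Acot2 A was most like Cyp4a3 (0.988), Acsl1 (0.986) and Gpd1 (0.986). For Acot4 they were Cyp4a1 (0.989), Aig1 (0.981) and Ehhadh (0.981), and for Acot3 Chkb (0.948), Eci1 (0.945) and Aig1 (0.941). Among the type II genes, Acot7 A was most like Aig1 (0.966), Creb3l3 (0.959) and Cyp4a1 (0.956), Acot8 like Fabp1 (0.971), Ephx2 (0.959) and Aig1 (0.956), and Acot12 like Hadha (0.934), Cyp4a3 (0.933) and Hadhb (0.932). Aig1 is a hydrolase of fatty acid esters, the Cyp4a enzymes hydroxylate fatty acids, and Fabp1 carries fatty acids in liver cells.

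The arrays carried strong hepatocyte markers, 7 of 8 of which were on the array and above the filter, with summed signals of 489120 to 633204 over all arrays. Among them Tat, a tyrosine aminotransferase, was called lower in all 4 comparisons (-0.92, -0.80, -0.82 and -0.83), and Hnf4a higher with 25 mM at 48 h (0.25). Some markers of other liver cells also passed the filter, without detection calls to show signal above background, and some of these were called with DINP. Beside the marker calls, 13.3%, 12.3%, 17.9% and 14.6% of all tested probe sets were called in either direction. A summed signal weights bright genes most, so medians of the differences are given with the larger lists. Summed stellate and fibroblast markers (6 of 8 above the filter, Col1a2 and Lrat not) were 14580 to 15308 with the vehicle at 24 h, against 8155 to 9382 (25 mM) and 8954 to 10373 (100 mM). At 48 h they were 13156 to 21483, against 9229 to 10777 and 9777 to 11917. Of the 6 tested, Vim alone was called lower in all 4 comparisons (-1.01, -0.79, -1.09 and -0.81), and Acta2 with 100 mM at 48 h (-0.52). The median of the 6 differences was -0.19, -0.24, -0.09 and -0.10. Kupffer cell markers (4 of 6, Adgre1 and Cd163 not) were 17783 to 19502 with the vehicle at 24 h against 20394 to 22849 and 19430 to 20983, and at 48 h 18499 to 20701 against 23196 to 27324 and 24063 to 24936. Of the 4 tested, Cd14 alone was called, higher in all 4 comparisons (0.25, 0.19, 0.42 and 0.34). The uncalled Kupffer cell markers went both ways in each comparison. The median of the 4 differences was 0.07, -0.08, 0.10 and 0.09, so the higher sums do not describe the list as a whole. Cholangiocyte markers (2 of 4, Krt7 and Spp1 not) were 11848 to 14309 with the vehicle at 48 h against 8810.2 to 11706 and 10439.5 to 12645, and overlapped at 24 h. Epcam was called lower at 48 h (-0.35 and -0.22), and Krt19, the other marker tested, was not called (-0.23 and 0.33). Endothelial markers (3 of 5, Pecam1 and Vwf not) and blood cell markers (2 of 6, Cd3e, Cd79b, Ptprc and S100a9 not) overlapped in sum between DINP and vehicle at both times, although Hbb, a globin, was called higher with 100 mM at 24 h (1.73, adjusted p = 0.0228, limma). The part of other cells in the thioesterase differences was not tested, and in bulk RNA more cells of a type and more RNA per cell cannot be told apart.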

How the data were processed

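Affymetrix rat expression arrays were hybridised with RNA of 30 wells, 5 in each of 6 groups. The authors deposited an unlogged signal intensity for each probe set on each array. Per the submitters' processing notes, MAS5 produced it (version not given in the sources used here), and no detection calls came with it. The 2% trimmed mean of the deposited intensities was 1500.65 to 1500.76 on every array, so arrays had been scaled to 1 mean before deposit. The number of arrays limits the precision.

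Probe sets were named from GEO's platform annotation: 20826 had 1 symbol, 436 several and 9780 none. For 20758 probe sets the symbol was taken from the RefSeq gene table (GRCr8), whether or not it differed. The 57 control probe sets were left out. Signals were taken as log2(signal + 16), and testing covered the 18625 probe sets whose mean reached the 40th percentile. One limma fit (version 3.58.1, R 4.3.3; lmFit, eBayes with trend) covered all 6 groups, with 24 residual degrees of freedom, and gave 9 comparisons, with Benjamini-Hochberg adjustment over all tested probe sets. The fit was tested on simulated data.

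The members and all gene lists were chosen with earlier results of these data known. By the rule used, every member probe set is described, each other list is given by its counts and its 3 called genes with the largest difference at 25 mM and 24 h (brightest tested probe set of a gene), and 3 genes most like each member are named. List and neighbour counts are of genes, while the shares beside them are of probe sets, and no share over genes was computed. Replicate numbers are those of accession order. Array numbers in the titles fall into rounds of 6, with 1 array of each group, and a well's replicate number is also the number of its round. Deviations from the group mean correlated at a median of 0.0044 over 75 pairs of the same round and of -0.00086 over 300 pairs of different rounds. The main fit therefore did not pair wells by round. A median over whole arrays cannot show whether single probe sets share a round effect. Alternatives covered the constant, the filter, scaling, variance trend, arrays fitted, array weights, the round as a block and each array left out in turn. Scaling to the poly-A spikes and the chromosome neighbours were chosen after seeing the data.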

Additional observations from a re-analysis of the deposited data

Results flagged for a closer look

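Each group of 5 wells was checked for a well standing apart by Dixon's test, over 11 probe sets (the shared one of Acot1 and Acot2 included) and 66 groups, in log2(signal + 16). Of these 3 passed its critical value of 0.71, where chance gives about 1 in 20. All 3 were Acot7 groups given DINP for 24 h. With 25 mM, replicate 5 of Acot7 A was low at 12.13, with the nearest other well at 12.42. With 25 mM, replicate 4 of Acot7 B was high at 7.78, with the nearest at 5.87. With 100 mM, replicate 3 of Acot7 B was low at 6.10, with the nearest at 7.18. Acot7 B lies below the dimmest tested mean, so its wells have no reliable order. Without replicate 5 the Acot7 A difference at 25 mM and 24 h was 1.08, against 1.01 with it.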

How the results depend on the processing

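For the 4 comparisons with the vehicle, all 720 values of the 9 tested probe sets and their counts kept their direction and their side of the threshold, over 10 alternative settings and the 30 fits that each left out 1 array. Their count stayed at 9 throughout. Scaling to the poly-A spikes gave the lowest values at 48 h for all but Acot1, with Acot3 at 0.51 (25 mM) and 0.63 (100 mM) against a median of all tested probe sets of -0.34 and -0.32. For the other 5 comparisons 1062 of 1079 values did so.

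The 4 calls between the vehicle groups were the exception. Fitting only the groups compared gave 1, of 8 tested, with Acot2 C (adjusted p = 0.0752) and Acot4 (adjusted p = 0.0846) lost and Acot1 under the filter. Scaling to the spikes gave 2, and leaving out 1 array gave 2 to 5. Acot2 A reversed to -0.365 with spike scaling, and the cause was not tested beyond the spikes' own shift. Acot1 lost its call with 64 added (0.58, adjusted p = 0.106), without replicate 2, 3 or 5 of the vehicle at 24 h (0.99, 0.92 and 0.89) and without replicate 1 or 5 at 48 h (0.92 and 1.06). Acot2 C lost its call without replicate 4 of the vehicle at 24 h (0.37, adjusted p = 0.0512), and Acot2 B gained one without replicate 4 at 48 h (0.41, adjusted p = 0.0205).

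With the round of array numbers as a replicate block, no thioesterase call changed: the counts were 9 in each comparison with the vehicle, 4 between the vehicle groups and 0 in the rest. Over all tested probe sets the block gave 2558 calls against 2485 (25 mM, 24 h) and 2357 against 2288 (100 mM, 24 h). At 48 h it gave 3405 against 3333 (25 mM) and 2782 against 2711 (100 mM). Between the vehicle groups it gave 2743 against 2674. For 100 against 25 mM at 48 h it gave 2 calls, in place of 1. For the change of effect with time it gave 40 against 45 (25 mM) and 16 against 12 (100 mM). The counts over all tested probe sets moved by more than 1.5 times as follows. Spike scaling gave 912 against 2485 (25 mM, 24 h), 7029 against 3333 (25 mM, 48 h), 5121 against 2711 (100 mM, 48 h) and 9053 against 2674 (vehicle groups). For the dose comparisons it gave 1 against 2 and 0 against 1, and for the change of effect with time 16 against 45 and 3 against 12. Fitting only the groups compared gave 0 against 2 and 0 against 1 for dose, and leaving out the variance trend gave 0 against 1 at 48 h. For the change of effect with time, median centring gave 13 against 45 at 25 mM, and quantile normalisation and array weights gave 24 and 25 against 12 at 100 mM. Leaving out 1 array gave 0 to 4 for dose at 48 h and 10 to 21 for the change of effect at 100 mM. Without detection calls, signal over background is not known for Acot1 in the vehicle groups or for Acot7 B.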

Other observations

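Within groups, the deviations of wells from their group mean were compared between the 9 tested probe sets, in 36 pairs over 30 arrays, as a description. The highest correlation was that of Acot2 A with Acot4, at 0.79, and 0.65 without replicate 1 of the vehicle at 48 h. Acot2 C with Acot4 gave 0.64, and 0.41 without that array. The lowest was that of Acot7 A with Acot12, at -0.28. The wells share array and scaling, whose part was not tested.

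With no filter on dim signals, Acot7 B differed from the vehicle by -0.69 and 0.44 at 24 h and by -0.15 and 0.45 at 48 h (25 and 100 mM, each ± 0.51), with adjusted p-values from 0.554 to 0.930 by limma.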
